A study of Homo sapiens with 16 samples.

Results

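The enzymes described here are 10 genes of transsulfuration, serine synthesis and folate metabolism: CBS, CTH, PHGDH, PSAT1, PSPH, SHMT1, SHMT2, MTHFD2, MTHFD1L and ALDH1L2. They are 10 of the 60603 genes in the count table, taken by symbol, and each symbol matched 1 row. CBS was chosen by its low level in ATRA-treated U-937 cells against vehicle, and the other 9 were chosen by name as its neighbours in metabolism. The contrast of ATRA against vehicle in U-937, and its difference from SKNO-1, are therefore given below as a description: no p-value is printed, and nothing is read from their counts.

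RNA-seq of 2 established human acute myeloid leukaemia lines was analysed, with 8 groups of 2 libraries each. SKNO-1 carries the RUNX1::RUNX1T1 fusion and grew with GM-CSF at 10 ng/mL, and U-937, a line of monocytic character, grew without it. Each line received DMSO (the vehicle), all-trans retinoic acid (ATRA, a ligand of the retinoic acid receptors used to differentiate leukaemic cells) at 0.1 µM, Corin (an inhibitor directed at the CoREST corepressor complex, which holds the demethylase LSD1 and histone deacetylases) at 0.1 µM, or ATRA+Corin with 0.1 µM of each, for 24 h. Both lines are single cell lines and their media differ, so line and medium cannot be told apart, and nothing states that the 2 libraries of a group came from separate cultures. P-values then measure only the spread between these libraries, which may be technical.

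Transsulfuration moves sulfur from homocysteine to cysteine: CBS joins homocysteine to serine, giving cystathionine, and CTH cleaves cystathionine to cysteine. Serine itself is made from a glycolytic intermediate by PHGDH, PSAT1 and PSPH in turn, and SHMT1 in the cytosol and SHMT2 in mitochondria pass a carbon unit from serine to folate. MTHFD2 oxidises that unit in mitochondria, MTHFD1L releases it as formate for purine and thymidylate synthesis, and ALDH1L2 oxidises it to CO2. Several of these genes are known targets of ATF4, the transcription factor of the amino acid response, and MTHFD2 is known for high expression in embryonic and cancer cells.

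Libraries held 28.4 to 37.8 M expected counts. The myeloid markers PTPRC, SPI1 and CD33 were present in all 16 libraries, RUNX1T1 was at 18.2 TPM or more in SKNO-1 and at most 0.03 TPM in U-937, and HOXA9 and HOXA10 were at 23.4 TPM or more in U-937 and at 0 in SKNO-1. Among the markers of other cell types given here, CD79A reached at most 2.06 TPM and 11 others at most 0.88 TPM; HBB, COL1A2 and CD3E had a median of 0 in both lines. The 2 DMSO libraries of SKNO-1 stood apart from each other: the SD of their log2 difference over genes was 0.354, against 0.111 to 0.198 in the other 7 pairs, and this difference correlated with GC content across genes (r = -0.797), which are not independent replicates. Results in SKNO-1 against DMSO rest on this pair.

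Levels between genes were compared in TPM, which is scaled to transcript length. Among DMSO libraries of U-937, PHGDH stood at 139 ± 1.23 TPM (SD, n = 2), MTHFD2 at 128 ± 12.2, SHMT2 at 123 ± 1.69, PSAT1 at 85.8 ± 2.49 and MTHFD1L at 50.2 ± 5.07. Below these came SHMT1 at 20.2 ± 0.354, PSPH at 17.5 ± 2.7, CTH at 9.22 ± 0.276, CBS at 7.75 ± 1.08 and ALDH1L2 at 0.13 ± 0.099 TPM. MTHFD2 differed from PHGDH and from SHMT2 by less than its own SD, SHMT1 and PSPH differed by about the SD of PSPH, and CTH and CBS by less than 2 SD of CBS. The other neighbours in the order were further apart than that. In SKNO-1 the order was MTHFD2 at 145 ± 43, PHGDH at 62.6 ± 6.45, SHMT2 at 58.3 ± 2.76, PSAT1 at 32.6 ± 8.92, PSPH at 15.2 ± 4.06, MTHFD1L at 13.1 ± 5.53, CBS at 12.7 ± 1.65, ALDH1L2 at 7.37 ± 3.51, SHMT1 at 3.77 ± 0.177 and CTH at 1.92 ± 0.629 TPM. MTHFD2 there had the widest SD, PHGDH differed from SHMT2 by less than the SD of PHGDH, and neighbours from PSPH to CBS did not differ beyond their spread.

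The lines differed in their untreated levels. A value was called changed when the adjusted p of edgeR's quasi-likelihood test, Benjamini-Hochberg adjusted over all genes tested, was under 0.05, and levels within a gene are given as CPM, counts scaled to library size with TMM factors. Between DMSO libraries, 6 of the 10 enzymes were higher in U-937 than in SKNO-1 (31.7% of all genes were called higher) and 3 were lower (33.1% of all genes). SHMT1 was 4.38-fold higher (log2 2.13 ± 0.127 SE, adjusted p = 2.07e-11), MTHFD1L 3.95-fold higher (log2 1.98 ± 0.109, adjusted p = 6.37e-12) and CTH 3.64-fold higher (log2 1.86 ± 0.179, adjusted p = 2.56e-08). PSAT1, PHGDH and SHMT2 were 2.06-fold, 1.8-fold and 1.66-fold higher. ALDH1L2 was 115-fold lower in U-937 (log2 -6.85 ± 0.196, adjusted p = 4.27e-16), CBS 2.14-fold lower and MTHFD2 1.4-fold lower, while PSPH had a log2 difference of -0.01 ± 0.117. The 9 calls were made under every alternative run for this contrast, each library left out included.

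**Figure D1:**
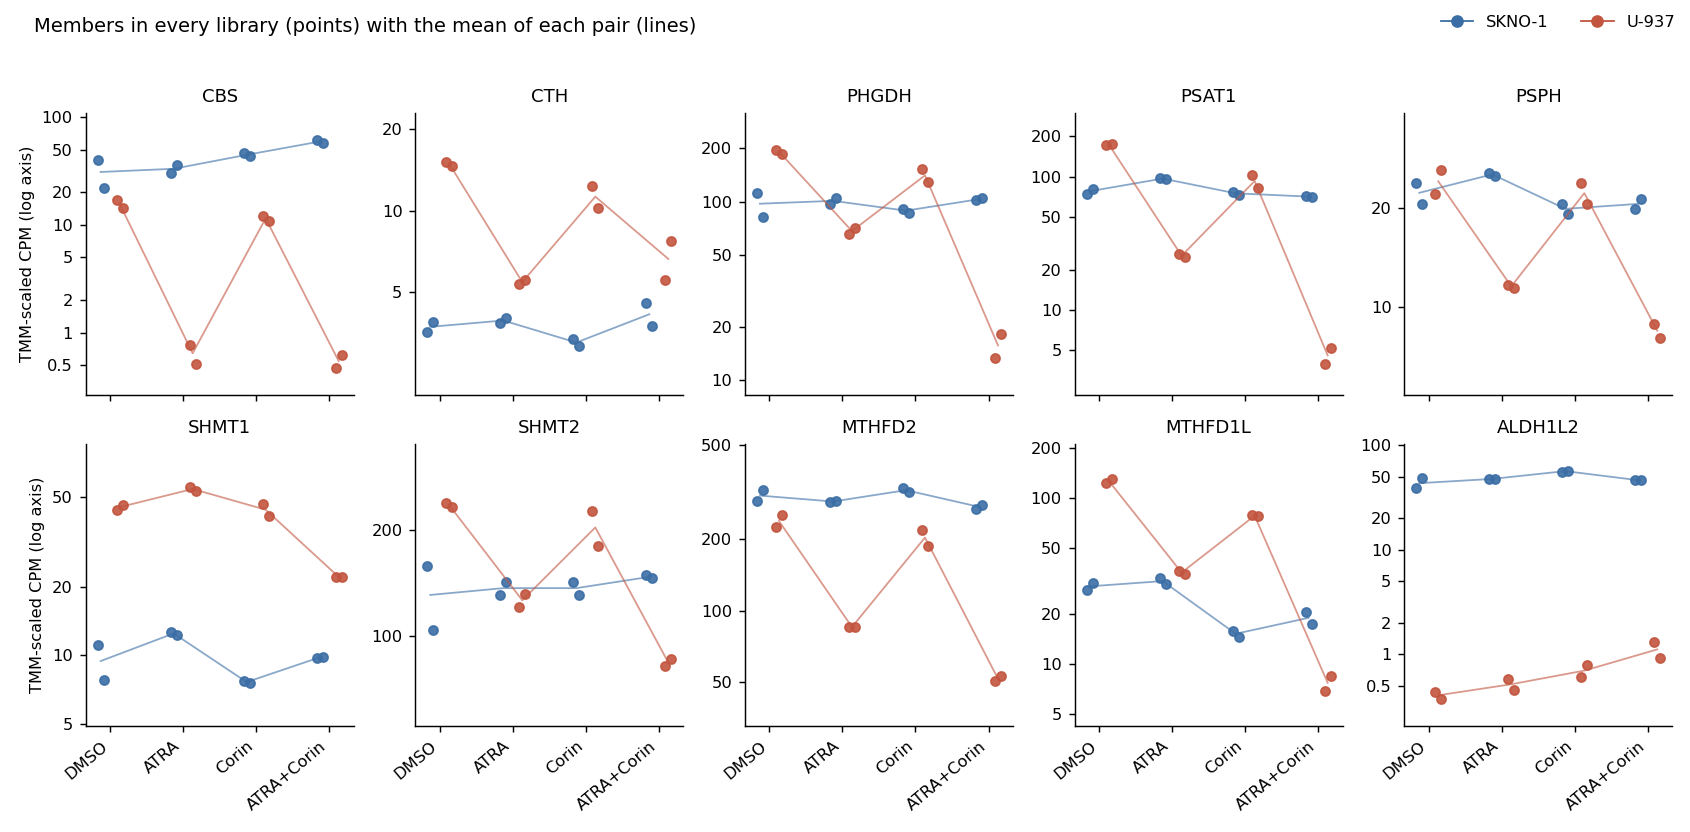
CPM of each of the 10 enzymes (log axis) in all 16 libraries, with DMSO, ATRA, Corin and ATRA+Corin on the horizontal axis; points are libraries and lines join the means of each pair. In U-937 the ATRA and ATRA+Corin points of CBS sit under 1 CPM against 14.4 and 17 in DMSO, and PSAT1 goes from 173 and 177 CPM in DMSO to 3.91 and 5.22 in ATRA+Corin.

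CBS (ENSG00000160200.17, chr21:43053191-43076943 on the minus strand of hg38) has a near-identical copy, CBSL (ENSG00000274276.4), at chr21:6444869-6468621, and reads that fit both were divided between the 2 genes by RSEM. The 17 exons of the CBS transcript, 2495 bases, differed from the copy at 1 base, in coding exon 8, so that 2296 of 2396 windows of 100 bases (95.8%) were identical. The stretch that holds this base is shown because it is the only place in this transcript where the reference sequences of the 2 genes differ. Variants of CBS at this base were not checked, so a read over it is not taken to identify its gene. The strand of the transcript is printed, from chr21:43065220-43065260 for CBS and chr21:6456898-6456938 for the copy, and the capital marks the differing base.
CBS: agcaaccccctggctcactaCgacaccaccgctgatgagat
CBSL copy: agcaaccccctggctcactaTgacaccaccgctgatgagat
Expected counts of CBS alone were whole numbers within 0.02 in 4 of 16 libraries, whereas CBS plus CBSL was whole in 16 of 16. The share given to CBSL had a median of 1.4% over all libraries, but was 55.3% and 77.5% in the 2 U-937 ATRA libraries and at most 13.8% in 13 of the other 14. The remaining one, ATRA+Corin replicate 1 of U-937, had 10.39 of 26 counts given to CBSL. Values of CBS are therefore given alone and with CBSL added.

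For CBS alone, U-937 libraries held 17 and 14.4 CPM in DMSO, 0.772 and 0.516 in ATRA, 12.2 and 10.8 in Corin and 0.473 and 0.618 in ATRA+Corin. For CBS plus CBSL the values were 17.1 and 14.5 in DMSO, 1.74 and 2.25 in ATRA, 12.3 and 10.8 in Corin and 0.769 and 0.618 in ATRA+Corin. Libraries with ATRA lay below all libraries without it on either measure, and the ATRA and ATRA+Corin libraries overlapped for CBS alone but not for the sum. Against DMSO, ATRA gave a log2 difference of -4.59 ± 0.228 for CBS (24.0-fold lower) and -2.99 ± 0.192 for the sum; the rule used the first of these, and neither carries a test here. In libraries the rule did not use, ATRA+Corin against Corin, CBS fell 21.1-fold (log2 -4.40 ± 0.239, adjusted p = 1.27e-13), and the sum by 4.05 ± 0.225 (adjusted p = 1.86e-13). ATRA+Corin against ATRA uses the ATRA libraries CBS was chosen by, so its values carry no test here. They were -0.26 ± 0.326 for CBS alone and -1.5 ± 0.257 for the sum. The sum rested on 63 and 74 counts in ATRA and 26 and 18 in ATRA+Corin. Its value ranged from -1.69 to -1.31 with each library left out in turn. Corin alone against DMSO uses the DMSO libraries of that choice, so for CBS it carries no test either. It gave -0.45 ± 0.169 in CBS, -0.63 with the GC trend removed and -0.43 with only these 2 groups fitted.

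**Figure D2:**
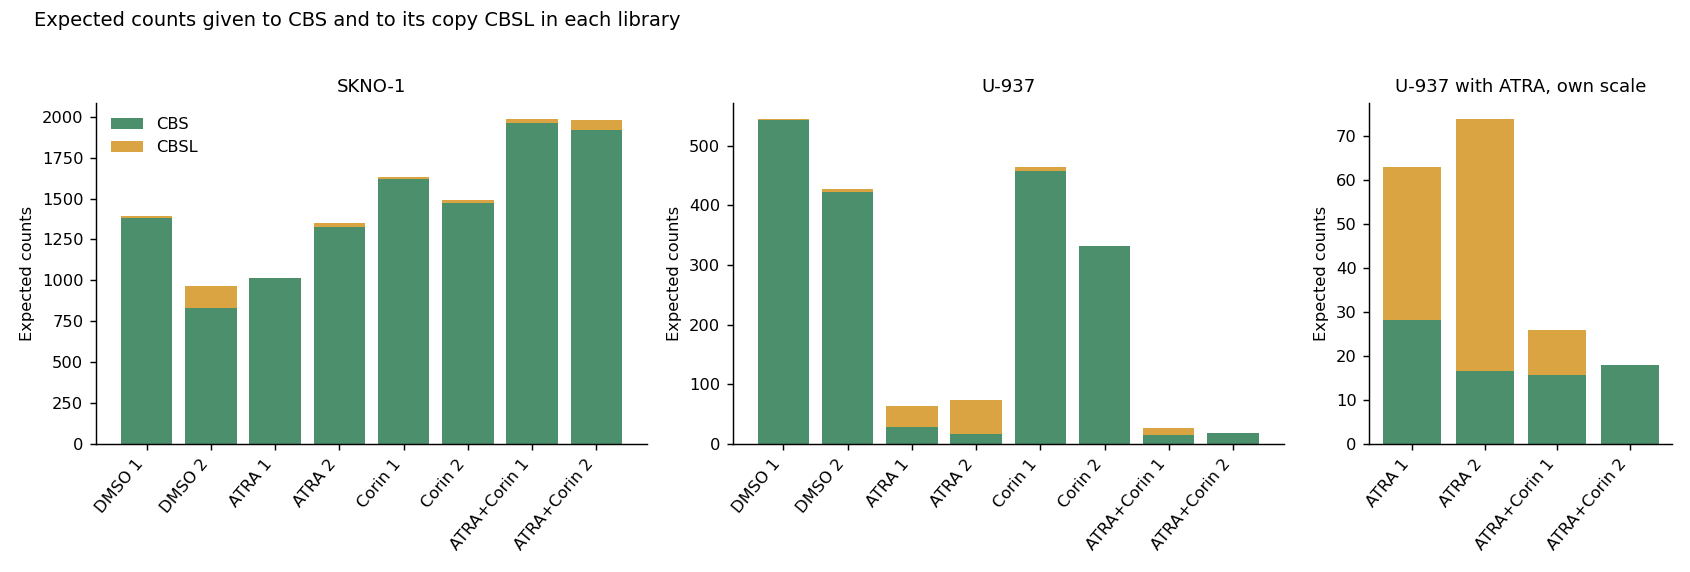
Expected counts of CBS (green) and CBSL (yellow) stacked in each library, for SKNO-1, for U-937, and on its own scale for the 4 U-937 libraries with ATRA; bars start at 0. The sum falls from 545 and 428 in U-937 DMSO to 63 and 74 with ATRA and 26 and 18 with ATRA+Corin, and CBSL holds most of the counts only in the 2 ATRA libraries.

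In SKNO-1, CBS plus CBSL held 40.3 and 25.4 CPM in DMSO, 30.5 and 36.6 in ATRA, 46.6 and 43.9 in Corin and 61.9 and 59.5 in ATRA+Corin. In CPM both ATRA+Corin libraries were above all others of the line. In TPM they held 20.4 and 22.8 and overlapped Corin, at 20.6 and 20, while DMSO held 14 and 13.1. CBS rose with ATRA+Corin against DMSO by 0.94 ± 0.234 (adjusted p = 0.0121), and the sum by 0.89 ± 0.191 (adjusted p = 0.00634). CBS rose against ATRA by 0.84 ± 0.234 (adjusted p = 0.0203), but was at 0.27 with the GC trend removed (adjusted p = 0.149), and 4 of 8 fits that left out a library lost this call (without ATRA replicate 1 or 2, 0.116 and 0.0565, and without ATRA+Corin replicate 1 or 2, 0.0946 and 0.0711, as adjusted p). Over fits leaving out each library, the rise against DMSO ranged from 0.56 to 1.42 for CBS and lost its call without ATRA+Corin replicate 1 (adjusted p = 0.0643); with the GC trend removed it was 0.38 (adjusted p = 0.0599), on a gene at 57.8% GC, the 82.6 percentile of expressed genes. CBS plus CBSL rose against ATRA by 0.86 ± 0.191 (adjusted p = 0.00773). With each library left out, the sum's rise was 0.76 to 1.03 against ATRA and 0.58 to 1.24 against DMSO. Without ATRA replicate 1 the rise against ATRA was 0.76 and lost its call. The sum was not fitted with the GC trend removed. For CBS without CBSL, ATRA alone gave 0.10 ± 0.235 (adjusted p = 0.899). Dropping DMSO replicate 1 made this 0.55 and dropping DMSO replicate 2 made it -0.31, both called.

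CTH (ENSG00000116761.11, chr1:70411218-70439851), which releases cysteine, held 15.1 and 14.6 CPM in U-937 in DMSO, 5.35 and 5.55 in ATRA, 12.3 and 10.2 in Corin and 5.56 and 7.7 in ATRA+Corin. All ATRA and ATRA+Corin libraries were below all DMSO and Corin libraries, and ATRA+Corin was not below ATRA. CTH was 2.72-fold lower with ATRA than with DMSO (log2 -1.44 ± 0.167, no test). It fell with ATRA+Corin against Corin by 0.77 ± 0.166 (adjusted p = 0.000333) and against DMSO by 1.17 ± 0.165 (adjusted p = 1.35e-06). ATRA+Corin against ATRA gave 0.28 ± 0.173 (adjusted p = 0.196). SKNO-1 libraries held 3.17 to 4.55 CPM under all treatments, with no call in any of the comparisons of the main fit. Corin against DMSO there was called lower with the GC trend removed (-0.39, adjusted p = 0.0455).

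PHGDH (ENSG00000092621.12, chr1:119648411-119744218) catalyses the committed step of serine synthesis. Its U-937 libraries held 195 and 185 CPM in DMSO, 65.9 and 70.8 in ATRA, 151 and 129 in Corin and 13.3 and 18.1 in ATRA+Corin. The 4 groups did not overlap and stood in the order DMSO, Corin, ATRA, ATRA+Corin. PHGDH was 2.78-fold lower with ATRA (log2 -1.48 ± 0.119, no test), fell with Corin by 0.44 ± 0.116 (adjusted p = 0.0124) and fell 12.1-fold with ATRA+Corin against DMSO (log2 -3.60 ± 0.132, adjusted p = 1.25e-15). Corin's call was lost without DMSO replicate 1, DMSO replicate 2 or Corin replicate 2 (adjusted p = 0.104, 0.0523 and 0.122). In SKNO-1, PHGDH held 82.4 to 112 CPM in all groups, and both ends of that range were DMSO libraries.

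PSAT1 (ENSG00000135069.14, chr9:78297125-78330093), the aminotransferase of the pathway, had the widest fold range within U-937. U-937 libraries held 173 and 177 CPM in DMSO, 26.1 and 24.9 in ATRA, 103 and 82.5 in Corin and 3.91 and 5.22 in ATRA+Corin. PSAT1 was 6.84-fold lower with ATRA (log2 -2.77 ± 0.122, no test), fell 1.88-fold with Corin (log2 -0.91 ± 0.113, adjusted p = 3.21e-06) and 38.5-fold with ATRA+Corin against DMSO (log2 -5.27 ± 0.145, adjusted p = 1.12e-18). ATRA+Corin against Corin lowered it 20.4-fold (log2 -4.35 ± 0.142, adjusted p = 4.92e-17). In SKNO-1 the range was 70 to 97.1 CPM: PSAT1 rose with ATRA against DMSO by 0.32 ± 0.0645 (adjusted p = 0.024) and fell with ATRA+Corin against ATRA by 0.45 ± 0.0647 (adjusted p = 0.000984). Leaving out DMSO replicate 1 made the rise with ATRA 0.21, and leaving out DMSO replicate 2 made it 0.34, both called. It lost its call in the other 6 fits that left out a library, with adjusted p of 0.0634 to 0.254.

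PSPH (ENSG00000146733.14, chr7:56011051-56051604, minus strand), the phosphatase of the last step, moved less. In U-937 it held 22 and 26.1 CPM in DMSO, 11.7 and 11.4 in ATRA, 23.8 and 20.5 in Corin and 8.91 and 8.04 in ATRA+Corin. The Corin and DMSO libraries overlapped, and the groups with ATRA lay below both. PSPH was 2.08-fold lower with ATRA (no test) and fell 2.61-fold with ATRA+Corin against Corin (log2 -1.38 ± 0.134, adjusted p = 3.85e-09). Its fall against ATRA, 0.45 ± 0.137 (adjusted p = 0.00946), was -0.37 without ATRA+Corin replicate 2 (adjusted p = 0.0696). Its 19.2 to 25.5 CPM in SKNO-1 gave a call for ATRA+Corin against ATRA, -0.30 ± 0.0998 (adjusted p = 0.0421), which was lost in 6 of 8 fits without a library.

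Summed over the 3 serine synthesis genes, U-937 held 238 and 247 TPM in DMSO, 61.4 and 57.9 in ATRA, 162 and 164 in Corin and 14.1 and 14.6 in ATRA+Corin. SKNO-1 held 82.7 to 124 TPM. The sum in U-937 thus lay above all SKNO-1 libraries with DMSO and Corin and below all of them with ATRA and ATRA+Corin.

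**Figure D3:**
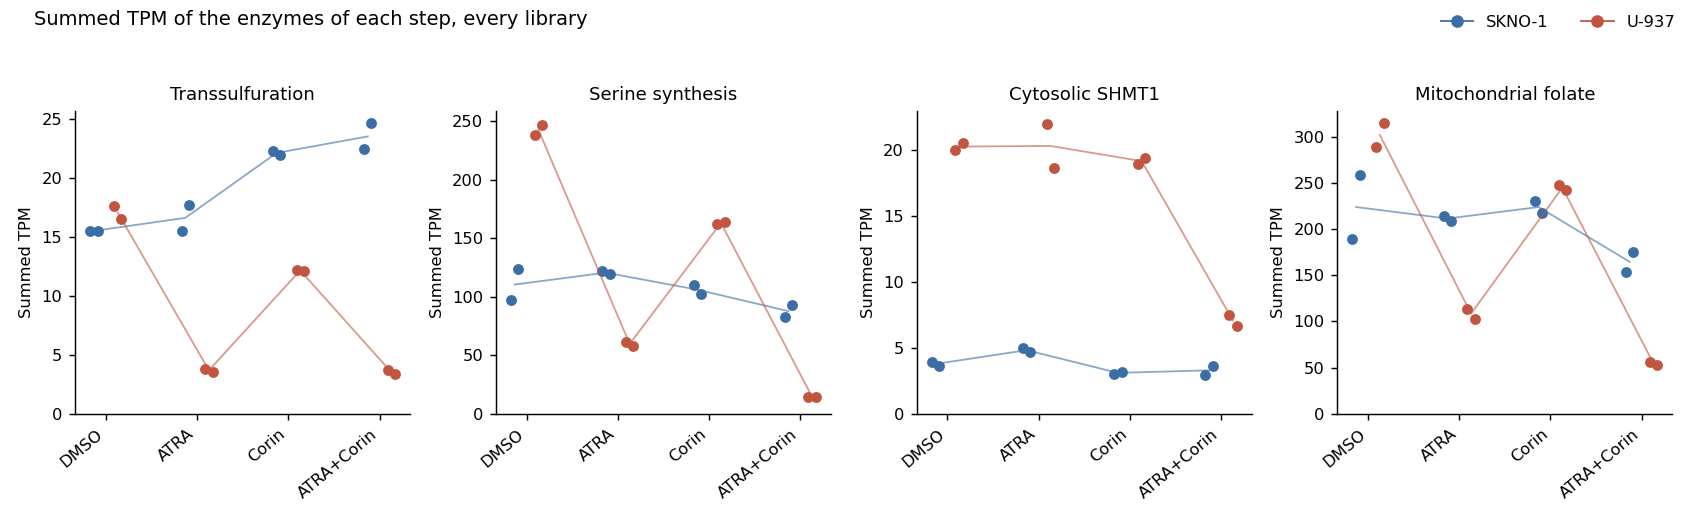
Summed TPM (linear axis from 0) of the enzymes of each step in every library: transsulfuration (CBS, CBSL and CTH), serine synthesis (PHGDH, PSAT1 and PSPH), SHMT1, and mitochondrial folate enzymes (SHMT2, MTHFD2, MTHFD1L and ALDH1L2). Lines join pair means. With ATRA+Corin, U-937 stands at 14.1 and 14.6 TPM for serine synthesis and at 56 and 52.5 TPM for mitochondrial folate enzymes, below every SKNO-1 library, and SHMT1 of U-937 is at 7.51 and 6.65 TPM against 18.6 to 22 in its other groups.

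SHMT1 (ENSG00000176974.20, chr17:18327860-18363563, minus strand), the cytosolic hydroxymethyltransferase, did not follow the pattern of the serine genes. U-937 libraries held 43.8 and 46.1 CPM in DMSO, 55.2 and 52.9 in ATRA, 46.6 and 41 in Corin and 22.1 and 22.2 in ATRA+Corin. In CPM the ATRA libraries were the highest and the ATRA+Corin libraries the lowest. In TPM the ATRA libraries, at 22 and 18.6, overlapped those of DMSO, at 20 and 20.5, and of Corin, at 18.9 and 19.4. The log2 difference of ATRA from DMSO was 0.27 ± 0.102 (no test), and ATRA+Corin lowered SHMT1 against Corin by 0.98 ± 0.105 (adjusted p = 2.04e-08) and 2.44-fold against ATRA (log2 -1.29 ± 0.105, adjusted p = 3.82e-10). In SKNO-1 it held 7.58 to 12.7 CPM, with no call in the main fit. With the GC trend removed it was called lower with Corin against DMSO (-0.55, adjusted p = 0.00192) and with ATRA+Corin against ATRA (-0.73, adjusted p = 0.000167). With only the groups compared it was called higher with ATRA+Corin against Corin (0.37, adjusted p = 0.0066).

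SHMT2 (ENSG00000182199.11, chr12:57229573-57234935), its mitochondrial counterpart, held 239 and 233 CPM in U-937 in DMSO, 121 and 132 in ATRA, 227 and 181 in Corin and 82 and 86.1 in ATRA+Corin. The ATRA+Corin pair was the lowest, and the Corin pair lay below DMSO. SHMT2 was 1.87-fold lower with ATRA (no test) and fell 2.43-fold with ATRA+Corin against Corin (log2 -1.28 ± 0.108, adjusted p = 3.41e-10). The ratio of SHMT2 to SHMT1 in TPM was 6.1 and 6.07 in U-937 in DMSO, 2.64 and 3.03 in ATRA, 5.8 and 5.18 in Corin and 4.39 and 4.6 in ATRA+Corin, and lay between 12.3 and 22.1 in SKNO-1. SKNO-1 held 104 to 158 CPM of SHMT2, both ends in DMSO, and no comparison passed the test in the main fit. ATRA+Corin against ATRA was called lower with the GC trend removed (-0.43, adjusted p = 0.000648). The same comparison was called higher with only these groups fitted (0.11, adjusted p = 0.0379).

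MTHFD2 (ENSG00000065911.12, chr2:74186172-74217565), the mitochondrial dehydrogenase and cyclohydrolase, held 225 and 253 CPM in U-937 in DMSO, 85.3 and 85.7 in ATRA, 219 and 188 in Corin and 50.5 and 53.1 in ATRA+Corin. The 2 groups with ATRA lay below the other 2. MTHFD2 was 2.79-fold lower with ATRA (no test) and fell 3.93-fold with ATRA+Corin against Corin (log2 -1.98 ± 0.106, adjusted p = 9.41e-14). SKNO-1 held 269 to 328 CPM in all libraries, the highest CPM of the 10 enzymes in that line, with no call in the main fit. There ATRA+Corin against Corin was called lower by DESeq2 (-0.28, adjusted p = 0.0166) and with only these groups fitted (-0.23, adjusted p = 3.42e-05).

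MTHFD1L (ENSG00000120254.15, chr6:150865679-151101887), which releases formate, held 123 and 130 CPM in U-937 in DMSO, 36 and 34.8 in ATRA, 78.7 and 77.1 in Corin and 6.86 and 8.49 in ATRA+Corin. Each group was separate, in the same order as for PHGDH. MTHFD1L was 3.56-fold lower with ATRA (no test), fell 1.62-fold with Corin (log2 -0.69 ± 0.101, adjusted p = 2.53e-05) and 16.5-fold with ATRA+Corin against DMSO (log2 -4.04 ± 0.12, adjusted p = 1.5e-18). It is also the enzyme that Corin lowered in SKNO-1: 27.9 and 30.6 CPM with DMSO and 32.8 and 30.1 with ATRA stood against 15.8 and 14.5 with Corin and 20.4 and 17.4 with ATRA+Corin. The fall with Corin was 0.95 ± 0.111 (adjusted p = 0.000478) and with ATRA+Corin against DMSO 0.63 ± 0.11 (adjusted p = 0.00229). Without DMSO replicate 1 these falls were -1.03 and -0.71, and without DMSO replicate 2 they were -0.89 and -0.57. With the GC trend removed they were -1.21 and -1.01. The 2 SKNO-1 calls held with every library left out in turn and under every other setting tried.

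ALDH1L2 (ENSG00000136010.14, chr12:105019784-105107643, minus strand), the mitochondrial formyltetrahydrofolate dehydrogenase, was far higher in SKNO-1, with 38.5 to 57.1 CPM there. U-937 had 14 and 11 counts in DMSO, 21 and 15 in ATRA, 23 and 24 in Corin and 44 and 27 in ATRA+Corin, so its changes rest on few reads. In CPM these were 0.438 and 0.373, 0.579 and 0.455, 0.612 and 0.784, and 1.3 and 0.928. ALDH1L2 rose with ATRA+Corin against DMSO in U-937 by 1.45 ± 0.426 (adjusted p = 0.00448), and this call was lost under DESeq2 (adjusted p = 0.0516) and without ATRA+Corin replicate 1 (adjusted p = 0.0576). Against ATRA it rose by 1.1 ± 0.406 (adjusted p = 0.0276), a call lost under DESeq2 (adjusted p = 0.16) and without ATRA replicate 1, ATRA replicate 2 or ATRA+Corin replicate 1 (adjusted p = 0.0641, 0.16 and 0.208). In SKNO-1 Corin raised it by 0.38 ± 0.101 (adjusted p = 0.0191). That value became 0.21 when DMSO replicate 1 was left out, 0.53 when DMSO replicate 2 was, and 0.2 with the GC trend removed, all called, and the call was lost without either ATRA or either Corin library, with adjusted p of 0.0513 to 0.109.

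**Figure D4:**
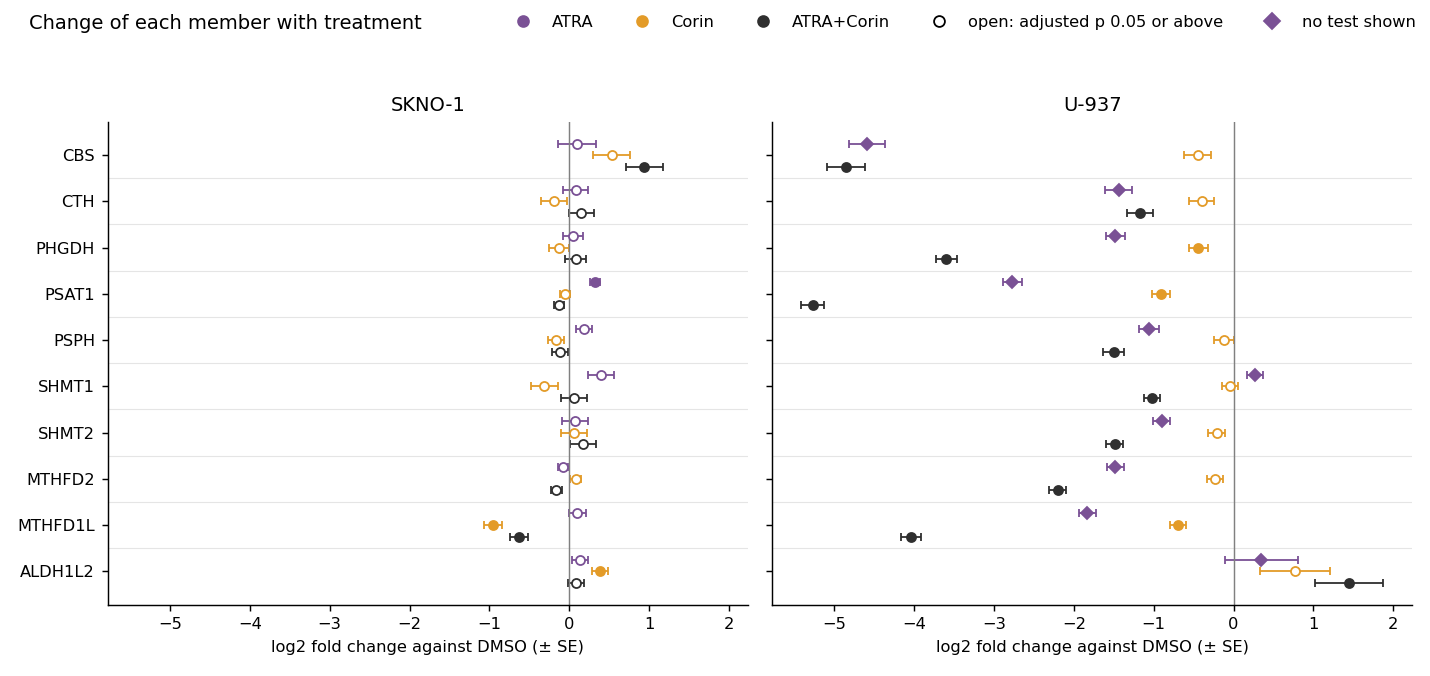
Log2 fold change against DMSO, with its SE, of each enzyme under ATRA, Corin and ATRA+Corin in SKNO-1 (left) and U-937 (right); filled circles have an adjusted p under 0.05 by edgeR, open circles do not, and diamonds mark ATRA in U-937, the contrast that CBS was chosen by. In U-937 the ATRA+Corin points lie at or below -1.02 for 9 enzymes and at 1.45 for ALDH1L2, whereas in SKNO-1 all points lie between -0.95 and 0.94.

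Counted over the 10 enzymes, ATRA against DMSO in U-937 had 8 called lower (20.1% of all genes) and 1 higher (21.7%), with a median log2 of -1.46 against 0.02 over all genes. CBS was chosen on this contrast, and nothing is read from the count. With ATRA+Corin against Corin, in libraries that choice did not use, 9 were lower (30.6% of all genes) and none higher (29.9%), and the median was -1.68 against 0.02. ALDH1L2, at 0.69 ± 0.394, did not pass that test (adjusted p = 0.136). With Corin alone against DMSO 3 were lower (PHGDH, PSAT1 and MTHFD1L, 4.4% of all genes), none was higher (8.55%), and the median was -0.31 against 0. ATRA+Corin against DMSO lowered 9 (32.2%) and raised 1 (33.1%), with a median of -1.85 against 0.03. ATRA+Corin against ATRA lowered 7 (24.8%) and raised 1 (22.5%), with a median of -0.66 against 0.01. The comparisons against DMSO share the DMSO libraries with the choice of CBS, and the last one shares its ATRA libraries.

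Calls in SKNO-1 are given by comparison, with the share of all genes called the same way in brackets, and nothing is read from these counts. With ATRA against DMSO 1 enzyme was higher (PSAT1, 2.96% of all genes) and none lower (3.79%). Corin against DMSO gave 1 higher (ALDH1L2, 20.5%) and 1 lower (MTHFD1L, 17.3%). ATRA+Corin against DMSO gave 1 higher (CBS, 24.7%) and 1 lower (MTHFD1L, 22%). ATRA+Corin against ATRA gave 1 higher (CBS, 23%) and 3 lower (PSAT1, PSPH and MTHFD1L, 21.8%). ATRA+Corin against Corin gave none higher (4.82%) and none lower (5.6%) by edgeR, where 1 higher and 2 lower had an unadjusted p under 0.05 and DESeq2 called 1 lower, MTHFD2. That count was 7 without either DMSO library and 7 when only these 2 groups were fitted, as the share of all genes called went from 10.4% to 38.9% in both of the first fits and 43.6% in the last. Medians over the 10 enzymes lay between -0.09 and 0.16 in the 5 comparisons.

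Removing a trend with GC content from each library moved these shares. Genes called with Corin in SKNO-1 went from 3590 higher and 3029 lower to 3078 and 7228, with ATRA+Corin from 4310 and 3850 to 3252 and 7576, and with ATRA+Corin against ATRA from 4015 and 3813 to 3138 and 7647, as the median of all genes shifted by -0.22, -0.28 and -0.28. ATRA+Corin against Corin in SKNO-1 went from 843 and 979 to 1069 and 2069, and Corin in U-937 from 1514 and 779 to 1226 and 1434. MTHFD1L stayed lower in SKNO-1 with Corin and ATRA+Corin under this setting.

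**Figure D5:**
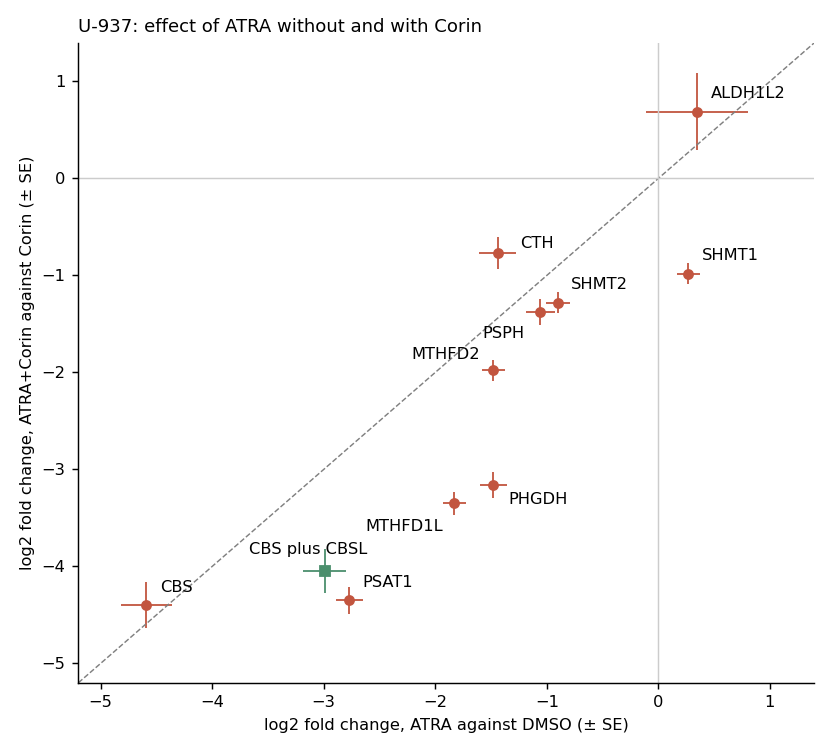
Log2 fold change, with SE on both axes, of the 10 enzymes in U-937 for ATRA against DMSO (horizontal) and ATRA+Corin against Corin (vertical), which share no library; the dashed line marks equal values and the green square is CBS plus CBSL. PHGDH, PSAT1, MTHFD1L and SHMT1 lie over 1 unit below the line, CTH and ALDH1L2 above it, and CBS close to it, while CBS plus CBSL lies 1.06 below.

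Whether the agents added up on the log2 scale in U-937 was tested as the departure from additivity, the effect of ATRA in the presence of Corin minus its effect without. It uses the DMSO and ATRA libraries of the choice of CBS. Of the 10 enzymes, 5 were below additivity (15.3% of all genes) and 1 above (8.09%), with a median of -0.44 against -0.03 over all genes. PHGDH departed by -1.68 ± 0.171 (adjusted p = 1.76e-07), PSAT1 by -1.58 ± 0.181 (adjusted p = 5.21e-07), MTHFD1L by -1.51 ± 0.154 (adjusted p = 6.26e-08), SHMT1 by -1.25 ± 0.146 (adjusted p = 5.51e-07) and MTHFD2 by -0.49 ± 0.144 (adjusted p = 0.0138). CTH departed by 0.68 ± 0.234 (adjusted p = 0.0384) in the other direction, a call that 6 of 8 fits without a library lost, and MTHFD2 lost its call in 3 of 8. For CBS this departure subtracts the values it was chosen by, so its 0.19 ± 0.368 alone and -1.06 ± 0.309 with CBSL are given with no test. In SKNO-1 none departed upward (0.315% of all genes) or downward (0.149%) by edgeR, none by DESeq2, and 2 had an unadjusted p under 0.05, both downward.

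Effects were also compared between the lines. For ATRA+Corin against Corin, U-937 minus SKNO-1, a contrast added after the data were seen, 9 enzymes were lower (20.6% of all genes) and ALDH1L2 was higher (18.5%). PSAT1 differed by -4.23 ± 0.171 (adjusted p = 1.45e-12), MTHFD1L by -3.61 ± 0.165 (adjusted p = 5.55e-12) and PHGDH by -3.33 ± 0.194 (adjusted p = 4.87e-10), and CBS plus CBSL by -4.43 ± 0.303 (adjusted p = 3.54e-09). For ATRA+Corin against DMSO, again 9 were lower (22.7%) and 1 higher (17.9%). For the Corin effect PSAT1 and CBS were counted as lower (7.49%) and none as higher (5.28%). PSAT1 differed by -0.86 ± 0.152 (adjusted p = 0.000768). The Corin effect in U-937 subtracts the DMSO libraries CBS was chosen by, so the values of CBS are given with no test. CBS differed by -0.99 ± 0.287 alone and by -0.91 ± 0.234 with CBSL added, and 14 of 16 fits without a library did not call CBS. For the ATRA effect, which holds the contrast CBS was chosen on, 8 were called lower in U-937 (8.81%) and none higher (10.6%), and nothing is read from this count. Genes called for the Corin effect went from 1050 higher and 1488 lower to 3892 and 1518 with the GC trend removed, those for ATRA+Corin from 3552 and 4518 to 4857 and 4143, and those for ATRA from 2100 and 1750 to 1726 and 2358 with library totals only.

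As a description of how the enzymes varied together, correlations of log2 CPM were taken over the 8 libraries of a line, which share the 4 treatments. In U-937 the median Pearson r over 45 pairs was 0.87, and the 28 pairs without ALDH1L2 and SHMT1 lay between 0.74 and 1.00. In SKNO-1 the median was 0.03, with a range of -0.77 to 0.89. Summed over all 10, U-937 held 564 and 599 TPM in DMSO, 201 and 182 in ATRA, 442 and 437 in Corin and 81.1 and 77.1 in ATRA+Corin, while SKNO-1 held 262 to 401.

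Among the 10896 genes averaging 5 CPM or more, the 5 whose pattern was most like that of CBS over the 16 libraries, each line centred on its own mean, were DNAAF3 (r = 0.981), TMEM163 (0.974), NFE2L3 (0.969), TNKS1BP1 (0.968) and PODXL2 (0.967). DNAAF3 held 4.12 CPM in U-937 in DMSO, 0.378 in ATRA, 4.74 in Corin and 0.335 in ATRA+Corin. With CBSL added to CBS, PODXL2 (0.974), TRGC1 (0.974), CCL5 (0.970), NRARP (0.966) and ECE1 (0.965) came closest, so only PODXL2 was on both lists.

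Genes around the 10 enzymes in metabolism were read from lists chosen with earlier results of these data known, so their counts are a description. They stand against 30.6% of all genes called lower and 29.9% higher for ATRA+Corin against Corin in U-937, and 5.6% and 4.82% in SKNO-1. Of 25 other folate genes, 20 were tested in U-937, and ATRA+Corin against Corin gave 11 lower and 4 higher, with a median of -0.38 against 0.02 over all genes. GCSH, of the glycine cleavage system, fell by 3.62 (23 ± 1.46 to 1.86 ± 0.0841 CPM), TYMS, thymidylate synthase, by 3.0 (119 ± 0.196 to 14.8 ± 0.642), and MTHFD1, the cytosolic trifunctional enzyme, by 2.30. In SKNO-1 this comparison gave 1 lower and none higher of 20. Of 11 methionine cycle genes 7 were tested in U-937: 5 were lower and 2 higher, with PEMT at -2.26, AHCY, which releases homocysteine for CBS, at -1.16 (227 ± 35.7 to 102 ± 5.59 CPM), and GNMT at 1.03.

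Of 19 genes of cysteine, sulfide and glutathione metabolism, 17 were tested in U-937, and ATRA+Corin against Corin gave 8 lower and 5 higher with a median of -0.25. CHAC2, which degrades glutathione, fell by 3.18, GGCT by 1.92, and GGT1 rose by 1.65. SLC7A11, the cystine transporter, rose by 1.32 (28.6 ± 3.86 to 71.2 ± 1.03 CPM). Its Corin level was below that of DMSO, at 61.6 ± 5.48 CPM, and ATRA alone held 85.5 ± 5.55. Of 14 genes listed under serine and glycine transport and use, 12 were tested, with 5 lower and 4 higher, where 30.6% and 29.9% of all genes were. That list also holds a copy of PSAT1 and a carrier not known to move either amino acid. SDS, serine dehydratase, rose by 2.63 (1.77 ± 0.242 to 11.1 ± 1.05 CPM). The neutral amino acid transporter SLC1A5 fell by 2.53 (199 ± 21.4 to 34.6 ± 0.695 CPM), as did the glycine-forming enzyme GCAT by 2.09.

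The list of ATF4 and amino acid response genes held 32 genes beside the enzymes themselves, all tested in U-937. ATRA+Corin against Corin gave 21 lower and 7 higher, with a median of -0.77. Corin alone gave 12 lower and 3 higher, with a median of -0.28, where 4.4% and 8.55% of all genes were lower and higher. The amino acid transporters SLC7A5 (-3.61) and SLC7A1 (-3.25) and the alanine aminotransferase GPT2 (-3.53) fell. ATF4 itself held 349 ± 13.8 CPM in DMSO, 162 ± 5.99 in ATRA, 313 ± 44.3 in Corin and 146 ± 9.28 in ATRA+Corin, and fell by 1.10 with ATRA+Corin against Corin. Members of the same list went the other way, with DDIT4 rising by 2.87 and CEBPB by 2.22. In SKNO-1 ATRA+Corin against Corin gave 3 higher and 2 lower of 30.

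The 10 proliferation genes were read beside the enzymes, as folate enzymes are often higher in dividing cells. ATRA+Corin against Corin in U-937 lowered 10 of 10, with a median of -1.78, led by MCM2 at -3.60, MCM5 at -2.58 and PCNA at -2.44. With ATRA against DMSO, the contrast CBS was chosen by, 3 were higher and 1 lower (21.7% and 20.1% of all genes), with a median of 0.20. Their part in the enzymes' values was not tested, and bulk RNA cannot tell fewer cells of a state from less RNA per cell.

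RefSeq promoter windows (GRCh38, 250 bases before to 50 after a start) were found for 7 of the 10 enzymes, in 12 windows; none was used for PSPH, SHMT2 and ALDH1L2. Searched on both strands, the C/EBP-ATF element TGATGCAA was in 0.866% of all 35116 windows, its relaxed form TGATGNAA, which includes it, in 3.62%, the E-box CACGTG in 7.26% and the retinoid receptor motif AGGTCA in 13.8%. Among the enzymes only MTHFD1L had any of the first 3, and none had AGGTCA. The MTHFD1L stretches are shown because it is the enzyme called lower in both lines with Corin, at chr6:150866346-150866375 and chr6:150866320-150866349 on the plus strand, with the motif in capitals.
MTHFD1L, C/EBP-ATF element: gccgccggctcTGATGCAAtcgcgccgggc
MTHFD1L, E-box: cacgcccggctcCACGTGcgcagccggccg
These matches are descriptions of the sequence and no measurement of binding.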

How the data were processed

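RNA-seq libraries of SKNO-1 and U-937, 2 per group, were taken from the table of all libraries, whose values equal those of the single files. Per the file headers the authors deposited expected counts, TPM and effective lengths from RSEM. Per the submitters' processing notes Trimmomatic, STAR, RSEM and DESeq2 were used on hg38, with versions not given in the sources used here. The authors' deposited tables of comparisons hold log2 fold changes and adjusted p-values. Total RNA libraries were made with a stranded kit and spike-in RNA, per the labels' protocols; 0 spike-in entries were in the table, so no absolute scale was used. The labels speak of paired reads, but the median length minus effective length was 99.68 bases and the files are marked as single-end, which bears on TPM.

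Expected counts were rounded. Genes passing edgeR's filterByExpr (17479 in SKNO-1, 17717 in U-937, 19872 in both lines) were fitted with edgeR 4.0.16 (TMM, robust quasi-likelihood test, R 4.3.3), 1 fit per line with 4 residual degrees of freedom and 1 fit of 16 libraries with 8 for contrasts between lines. All 10 enzymes passed the filter in each fit. P-values were Benjamini-Hochberg adjusted over all genes tested, with a threshold of 0.05, and the scripts were tested on simulated data. SE is the log2 fold change over the root of F. CPM are TMM-scaled. The copies CBS and CBSL were compared on hg38 with GENCODE 44 exons. Alternatives were library totals only, DESeq2 1.42.0, no filter on low counts, a replicate block, a GC trend removed per library, CBSL added to CBS, only the groups compared, and each library left out. Of 13 other copies named after the enzymes, the largest had 11.0 counts in a library. Of 2 rows named GGT1 the one with the reference's ID was used, and 9 tRNA synthetase genes of the lists were matched by ID to older symbols.

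The enzymes and the lists were chosen with earlier results of these data known. All 10 enzymes are named; from each list and comparison at most the 3 called genes with the largest change are named, ATF4, DDIT4, CEBPB and SLC7A11 being named after their values were seen. Contrasts marked as having no test are those CBS was chosen by or, for CBS, share libraries with that choice. The values of 1 marker gene are not reported here.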

Additional observations from a re-analysis of the deposited data

Results flagged for a closer look

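Effects of the same treatment that differed between the lines, by edgeR's test of the difference itself (U-937 minus SKNO-1, log2), were as follows. The Corin effect differed for CBS by -0.99 and for PSAT1 by -0.86. For CBS, effects against DMSO use the DMSO libraries it was chosen by, so those values are a description. The ATRA+Corin effect against DMSO differed for CBS by -5.75, PSAT1 by -5.09, PHGDH by -3.64, MTHFD1L by -3.36, MTHFD2 by -2.0, SHMT2 by -1.62, PSPH by -1.35, CTH by -1.27, SHMT1 by -1.04 and ALDH1L2 by 1.41, with adjusted p from 1.23e-13 (PSAT1) to 0.00125 (ALDH1L2). For ATRA+Corin against Corin the differences were -4.76 for CBS, -4.23 for PSAT1, -3.61 for MTHFD1L, -3.33 for PHGDH, -1.7 for MTHFD2, -1.39 for PSPH, -1.34 for SHMT2, -1.3 for SHMT1, -1.06 for CTH and 1.04 for ALDH1L2. That of ALDH1L2 was not called without U-937 Corin replicate 1 or U-937 ATRA+Corin replicate 1.

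CBSL, which is outside the 10 enzymes, was flagged in the authors' deposited comparison of ATRA against DMSO in U-937. Its log2 fold change there is 3.54, and that of CBS is -4.60. Reads that fit both genes were divided between them by RSEM, so no rise of CBSL is read from this value. Expected counts of CBSL were 2.13 and 5.47 with DMSO and 34.85 and 57.34 with ATRA, while the sum of both genes went from 545 and 428 to 63 and 74.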

How the results depend on the processing

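Counts of enzymes called in U-937 kept within 1.5 times under each alternative, with 1 exception: Corin against DMSO had 3 and gave 5 with the GC trend removed and 5 with the replicate block and GC trend together (2 to 4 without 1 library). Without 1 library the other U-937 counts and those between lines ranged from 8 to 9 (ATRA), 9 to 10 (ATRA+Corin), 9 to 9 (ATRA+Corin against Corin), 7 to 8 (ATRA+Corin against ATRA) and 4 to 6 (additivity). The Corin difference between lines, 2, ranged from 1 to 4, with 4 without either SKNO-1 DMSO library.

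In SKNO-1 the counts moved. ATRA had 1 and gave 0 with library totals only, 0 with the replicate block, 0 with only the groups compared, and 0 to 7 without 1 library (7 and 5 without DMSO replicates 1 and 2, where the share of all genes called went from 6.76% to 29.1% and 24.7%). Corin had 2 and gave 7 with the GC trend removed, 7 with block and GC trend, 1 with only the groups compared, and 1 to 7 without 1 library. ATRA+Corin had 2 and gave 7, 8 and 1 under these settings, and 1 to 7 without 1 library. ATRA+Corin against Corin had 0 and gave 1 with DESeq2, 3 without the low-count filter, 7 with only the groups compared, and 0 to 7 without 1 library. ATRA+Corin against ATRA had 4 and gave 7 with the GC trend removed, 7 with block and GC trend, and 2 to 6 without 1 library. Shares of all genes moved with these counts: with the GC trend removed they went from 37.9% to 59.0% for Corin, 46.7% to 61.9% for ATRA+Corin and 44.8% to 61.7% for ATRA+Corin against ATRA. Departure from additivity had 0 and gave 1 with the GC trend removed, 1 with block and GC trend, and 0 to 6 without 1 library.

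Directions turned in SKNO-1, with the alternative called. Without DMSO replicate 2 these were ATRA for CBS (-0.31, or -0.3 with CBSL added), PHGDH (-0.19) and SHMT2 (-0.24), Corin for SHMT2 (-0.23) and ATRA+Corin for PHGDH (-0.13), against 0.55, 0.25, 0.35, 0.37 and 0.31 without DMSO replicate 1, the other ends of their ranges. With the GC trend removed, also with the block, ATRA+Corin against DMSO gave -0.31 for PHGDH, -0.34 for SHMT1 and -0.37 for SHMT2, and against ATRA -0.34 for PHGDH and -0.43 for SHMT2; block and GC trend gave -0.18 for Corin on SHMT2. In U-937 the additivity value of CBS, given with no test, turned to -1.06 with CBSL added, and to -1.18, -1.24, -0.96, -1.15 and -1.22 in 5 fits of that sum without 1 library. Of 3155 enzyme values under alternatives, 115 gained a call, 82 lost one and 23 turned with a call in either fit. The other 2935 kept their call or lack of it, and 67 of these changed sign with neither value called. The cause was not tested.

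Replicate numbers are shared between groups, and the main fit did not treat the libraries as paired. Deviations of same-numbered libraries correlated between -0.488 and 0.418. Differences within a pair also followed GC content, with r = -0.797 in SKNO-1 DMSO and -0.562 in U-937 DMSO, so these correlations cannot decide on pairing. The replicate block changed the call of PSAT1 with ATRA in SKNO-1 (adjusted p = 0.0617), of PSPH with ATRA+Corin against ATRA there (0.0641) and of CTH's additivity in U-937 (0.0601). Of the enzymes counted for ATRA in U-937, which carry no test here, SHMT1 went from 0.27 to 0.26 with the block and was no longer counted. Depth limits ALDH1L2 in U-937, at 11 to 44 counts, and CBS in U-937 with ATRA+Corin, at 18 and 26 counts with CBSL.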
